A study of Mus musculus with 8 samples.

Results

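Semaphorins, their plexin and neuropilin receptors, and the collapsin response mediator proteins (CRMPs) were followed in the dorsal forebrain of mouse embryos that had lost Sufu in the cortical lineage. The family was taken as every protein-coding gene whose symbol marks it as a semaphorin of classes 3 to 7, a plexin, a neuropilin or a CRMP, which gave 36 of the 43629 gene IDs listed. It holds 20 semaphorins (7 secreted and 13 membrane-bound), 2 neuropilins, 9 plexins and 5 CRMPs. RNA was sequenced from male embryos at embryonic stage E12.5 on a mixed C57BL/6J background, with 4 samples per genotype. Mut_340, Mut_337, Mut_317 and Mut_295 are the Sufu-cKO samples, with 1 Emx1-cre allele and floxed Sufu on both chromosomes (Emx1-cre/+;Sufu-fl/fl), so that the Emx1 locus drives recombination in dorsal telencephalic progenitors and their descendants and not in vessels, blood or meninges. Cont_370, Cont_365, Cont_345 and Cont_294 are the control samples, which were Sufu-fl/fl or Sufu-fl/+, and the labels do not say which sample had which. Effects of the Emx1-cre allele and of the loss of Sufu cannot be told apart in this design. The labels do not say whether samples of a genotype came from separate embryos or litters, and every p-value here therefore reflects only how far these 8 samples scatter, part of which may be technical. SUFU restrains hedgehog signalling by holding back the GLI transcription factors, and the study asked how its loss changes the specification of neocortical progenitors.

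Semaphorins are guidance cues for growing axons, migrating neurons and blood vessels. Secreted class 3 semaphorins mostly bind a neuropilin, which recruits a plexin as the signalling partner, whereas membrane-bound semaphorins bind plexins directly. The intracellular part of plexins acts on small GTPases, and CRMPs are cytosolic proteins that bind tubulin and relay semaphorin signals to the growth cone. In the embryonic cortex these proteins steer the radial migration of young neurons, the routes of interneurons and the outgrowth of the first axons.

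Total counts lay between 27514357 and 34878838 per sample. Sufu had 40.6 ± 4.64 CPM (counts scaled to a common library total) in Sufu-cKO samples and 112 ± 9.13 CPM in control samples (SD, n = 4 each; edgeR quasi-likelihood test, adjusted p = 1.07e-06). Lhx2, a transcription factor that marks cortical progenitors, had 355 to 446 CPM in Sufu-cKO and 536 to 632 CPM in control samples. Of 10 listed dorsal telencephalic progenitor genes, Lhx2 among them, 3 were called higher and 5 lower (edgeR, adjusted p under 0.05). The share called was 80.0%, against 11.0% of all tested genes. Their summed level overlapped, with 1825 to 2124 CPM in Sufu-cKO and 2081 to 2368 CPM in control samples. Markers of neighbouring tissues set 2 libraries apart. The summed level of 12 meningeal and mesenchymal genes was 1703 CPM in Sufu-cKO sample Mut_337, against 783 to 821 CPM in Mut_295, Mut_317 and Mut_340 and 983 to 1053 CPM in the controls. Sufu-cKO sample Mut_340 had the lowest summed level of 10 choroid plexus genes, at 96.9 CPM, where its 3 fellow Sufu-cKO samples had 267 to 299 CPM and controls 537 to 819 CPM. For the choroid plexus genes the genotypes also differed, with every Sufu-cKO sum below every control sum. Of the 10 genes 6 were called, all lower (60.0%, against 11.0% of all tested genes). The tissue was sampled in bulk, so that fewer cells of a type and less RNA per cell cannot be told apart.

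In the comparison of genotypes 8 of the 35 tested members were called, 6 higher and 2 lower in Sufu-cKO. Plxnc1, Sema3d, Sema6a, Nrp2, Sema6d and Crmp1 rose, and Sema7a and Nrp1 fell. Over all 15382 tested genes the share called was 11.0%, with 5.34% higher and 5.64% lower, against 22.9% of the family. A gene was called at a Benjamini-Hochberg adjusted p under 0.05 over all tested genes. The median log2 fold change of the tested members was 0.05, beside 0.01 for all tested genes. The groups did not overlap for 8 members, against 16.2% of all tested genes, and these 8 were the called members other than Sema7a, plus Sema4d. The remaining member, Plxnb3, had 0 to 6 counts per Sufu-cKO sample and 1 to 3 per control sample and was too low to be tested. Against a 1.2-fold change 4 of the 35 tested members were called, Plxnc1, Sema6a, Sema3d and Nrp2, beside 716 of all 15382 tested genes.

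**Figure D1:**
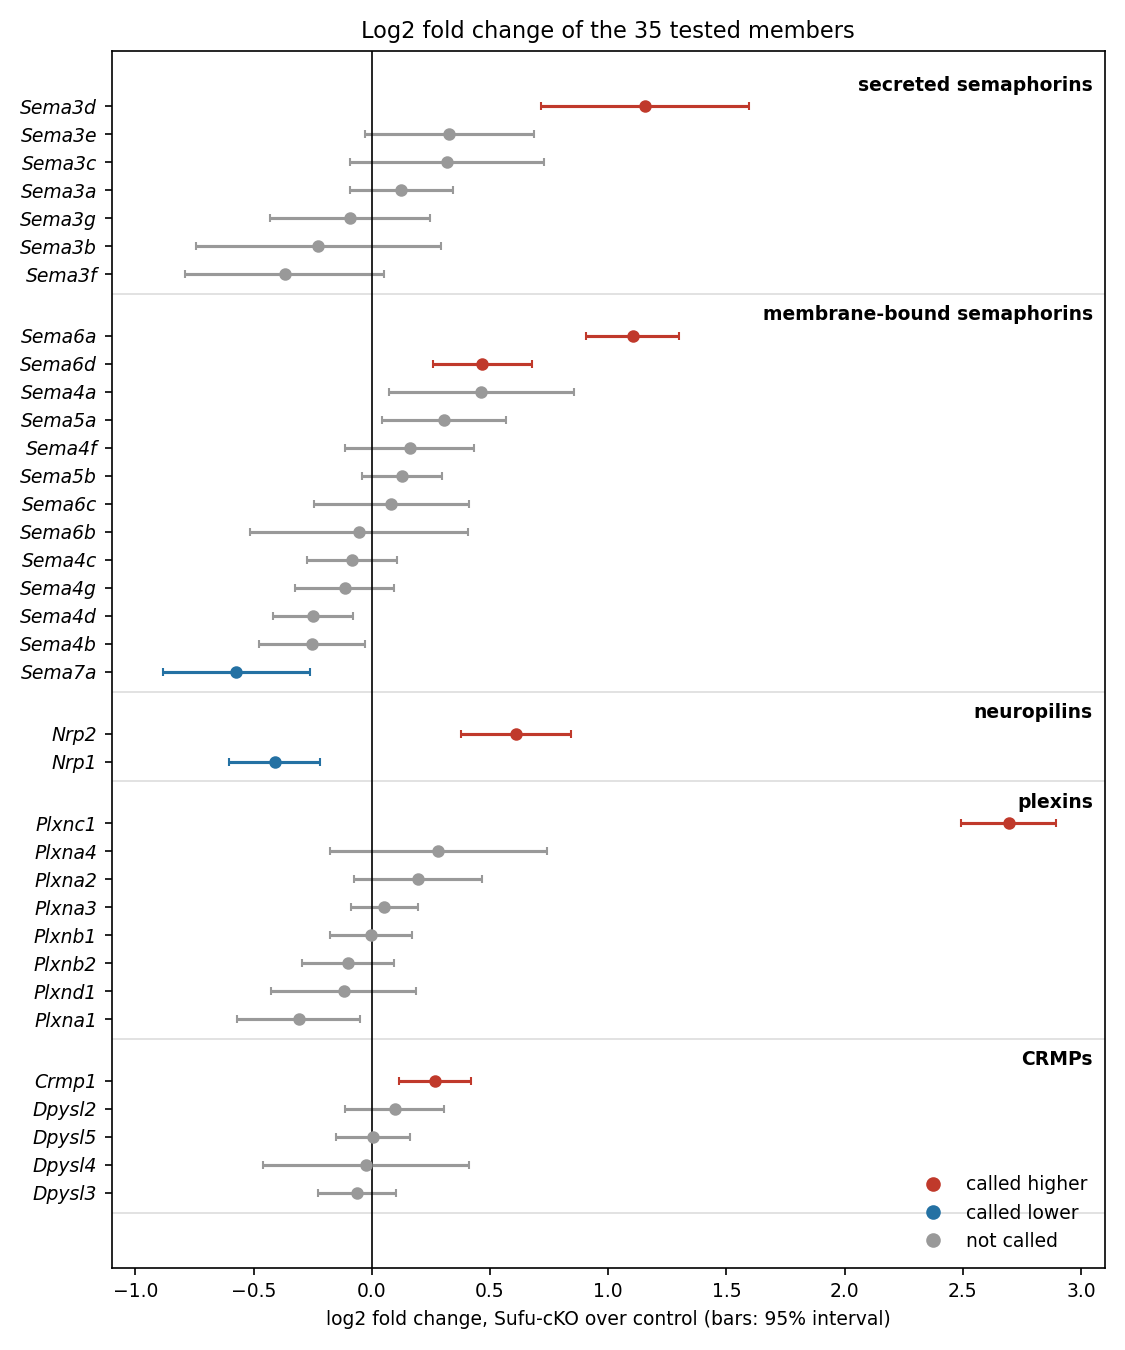
Log2 fold change, Sufu-cKO over control, of the 35 tested members in 5 classes, ordered by size within each class, with 95% intervals from the edgeR fit (4 samples per genotype). Plxnc1, at 2.69, stands apart to the right, Sema3d and Sema6a follow at 1.16 and 1.10, and most other intervals include 0.

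Plxnc1 (ENSMUSG00000074785, chromosome 10, 94790866 to 94944578, GRCm38), which encodes a plexin receptor for Sema7a, showed the largest change of the family. It had 221, 250.2, 256 and 299.7 CPM in the 4 Sufu-cKO samples and 39.8, 37.9, 37.3 and 43.7 CPM in the 4 control samples. The ranges were far apart, with every Sufu-cKO sample well above every control sample. The mean was 257 ± 32.5 CPM in Sufu-cKO and 39.7 ± 2.88 CPM in control (SD, n = 4 each), a 6.47-fold rise with a 95% interval of 5.62 to 7.44 (log2 fold change 2.69, SE 0.0923; edgeR, adjusted p = 3.45e-08). By p-value Plxnc1 ranked 1 among all 15382 tested genes, and by size of rise it ranked 33. In the 8 fits that each left out 1 sample its log2 fold change stayed between 2.60 and 2.76. The summed level of 14 young neuron genes was also higher, with 3003 to 3252 CPM in Sufu-cKO and 2424 to 2836 CPM in control samples, and its part in the level of Plxnc1 was not tested. Plxnc1 shares 115 exon bases with Gm48718, an unverified transcript on the same strand.

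Relative to the other plexins, Plxnc1 changed its place. Per kb of exon it was the lowest of the 8 tested plexins in control samples, at 4.75 ± 0.345 CPM per kb, and ranked 2 among them in Sufu-cKO samples, at 30.8 ± 3.89 CPM per kb. That level is the same as that of Plxnb1 in Sufu-cKO samples (30.8 ± 3.56 CPM per kb). Its share of the summed plexin CPM was 12.7%, 12.6%, 15.2% and 17.2% in the 4 Sufu-cKO samples and 2.82%, 2.32%, 2.24% and 2.87% in the 4 control samples. The sum of all plexins was 228 CPM higher in Sufu-cKO, and Plxnc1 alone was 217 CPM higher. That sum is a net value, as differences of the other plexins ran from -32.5 CPM (Plxna1) to 47.7 CPM (Plxna2). Of 5 tested genes within 500 kb of Plxnc1, Socs2 fell (log2 fold change -1.0) and the other 4 were not called, where 11.0% of all tested genes were called.

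The sequence before the transcription start of Plxnc1 is shown, as that of the most changed member, with those of its ligand Sema7a and of Nrp1, the 2 members that fell. In none of the 3 do these 250 bases hold an annotated exon. The bases come from RefSeq promoter records on GRCm38.p6, run 5′ to 3′ on the gene's strand and end at the base before the start, and capitals mark CG dinucleotides. They lie at chr10:94944846-94945095 (minus strand) for Plxnc1, chr9:57939862-57940111 (plus strand) for Sema7a and chr8:128358823-128359072 (plus strand) for Nrp1. The RefSeq start of Plxnc1 lies upstream of the gene coordinates given above, which end at 94944578, so the 2 annotations place its start differently.
Plxnc1: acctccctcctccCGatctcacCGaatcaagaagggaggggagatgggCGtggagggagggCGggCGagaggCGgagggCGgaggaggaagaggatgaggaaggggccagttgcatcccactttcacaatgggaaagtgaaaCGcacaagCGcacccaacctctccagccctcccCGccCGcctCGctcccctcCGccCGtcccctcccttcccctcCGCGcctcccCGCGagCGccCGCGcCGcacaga
Sema7a: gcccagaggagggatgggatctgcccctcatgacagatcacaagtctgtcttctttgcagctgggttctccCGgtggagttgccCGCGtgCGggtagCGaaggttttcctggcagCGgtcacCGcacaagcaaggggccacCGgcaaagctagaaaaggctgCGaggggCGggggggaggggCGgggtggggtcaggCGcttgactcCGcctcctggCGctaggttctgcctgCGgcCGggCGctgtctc
Nrp1: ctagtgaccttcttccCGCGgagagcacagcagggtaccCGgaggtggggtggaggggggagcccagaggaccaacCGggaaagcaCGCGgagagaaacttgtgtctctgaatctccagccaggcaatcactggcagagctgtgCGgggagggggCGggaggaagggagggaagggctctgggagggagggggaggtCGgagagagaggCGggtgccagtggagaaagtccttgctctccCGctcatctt
CG dinucleotides numbered 22 for Plxnc1, 17 for Sema7a and 11 for Nrp1, against a median of 6 over the 32851 promoter windows of the table. Windows of called members held from 4 (Sema3d) to 32 (Nrp2), and those of members not called from 0 (Sema6c) to 39 (Sema3c). The GLI binding motif GACCACCCA was searched on both strands of these 250 bases. It was present without a mismatch in 0.225% of all windows and with up to 1 mismatch in 5.79%. Of the 8 called members 7 had a window, 9 windows in all, and neither form was found in them, which says only that these letters are not in these windows. Among all 40 windows of 28 members, 3 held a form with 1 mismatch, those of Plxna2, Sema6b and Sema6c.

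Sema7a (ENSMUSG00000038264, chromosome 9, 57940113 to 57962864), a semaphorin held at the membrane by a lipid anchor and a ligand of both Plxnc1 and integrins with the beta1 subunit, fell. It had 23.3, 16.6, 15.5 and 17.96 CPM in Sufu-cKO samples and 25.9, 27.2, 33.3 and 22.8 CPM in control samples. Sufu-cKO sample Mut_295 lay just above the lowest control sample, and the other Sufu-cKO samples lay below all controls. The fall was 1.49-fold (log2 fold change -0.57, SE 0.142; edgeR, adjusted p = 0.0235). It kept its direction but lost its call in 5 of the 8 fits without 1 sample, those without Mut_317, Mut_337, Mut_340, Cont_345 or Cont_365 (edgeR, adjusted p 0.0546 to 0.0699). Plxnc1 CPM divided by Sema7a CPM within a sample was 9.48 to 16.7 in Sufu-cKO and 1.12 to 1.91 in control samples. The integrin subunit genes Itgb1 and Itga1, which encode the other receptor of Sema7a, were not called (log2 fold changes 0.02 and -0.13). Of 24 tested genes within 500 kb of Sema7a 3 were called, where 11.0% of all tested genes were called. Stra6 and Loxl1 fell (log2 fold changes -0.63 and -0.81) and 1600029O15Rik rose (0.51).

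**Figure D2:**
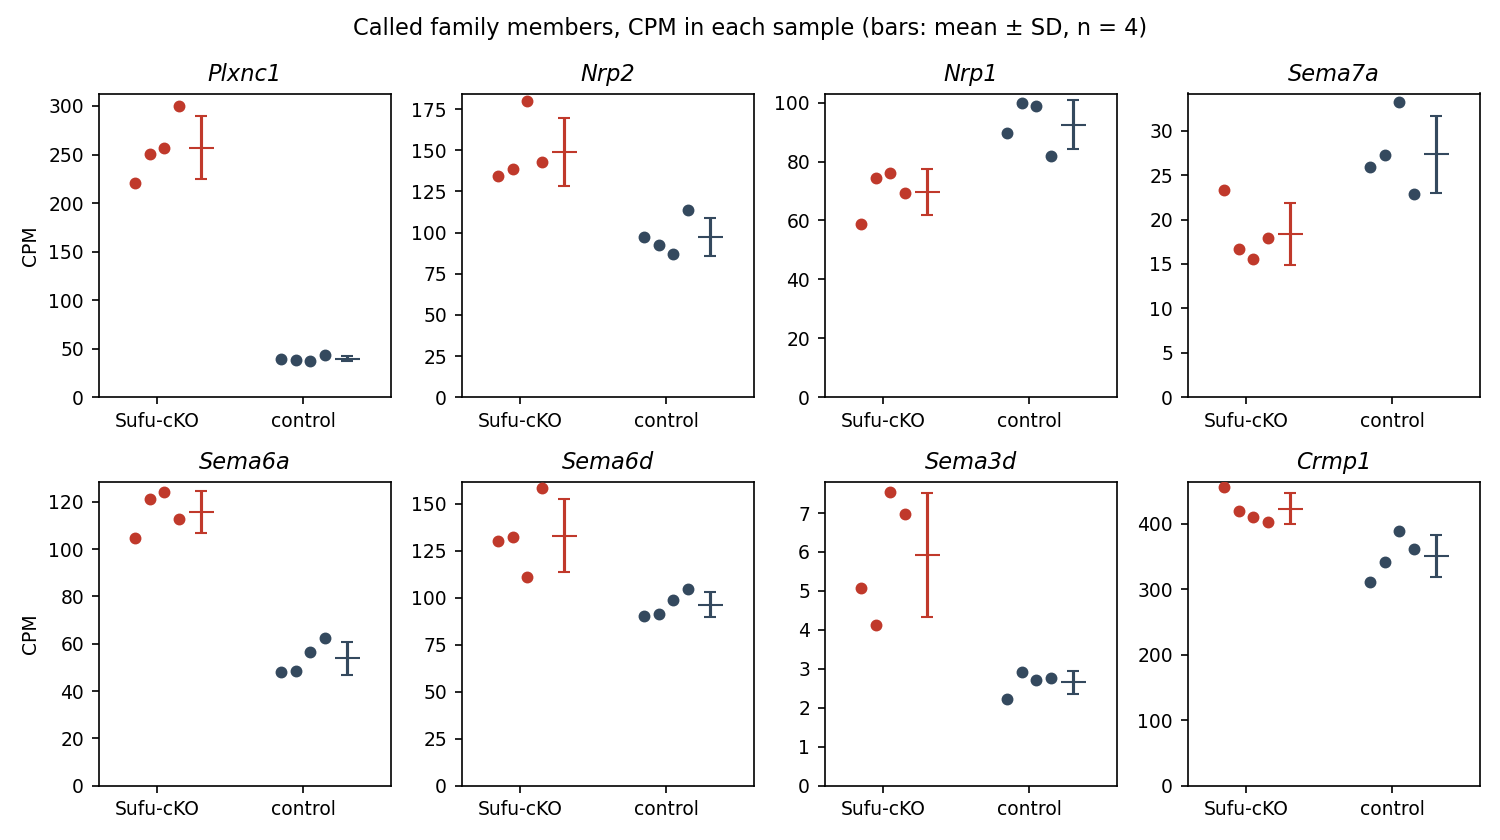
CPM of the 8 called members in each sample, 4 Sufu-cKO samples left of 4 control samples in each panel, with the mean ± SD beside the points and axes that start at 0. The groups are separate in every panel except that of Sema7a, where 1 Sufu-cKO sample reaches the control range.

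The neuropilins, the ligand-binding partners of plexins for class 3 semaphorins, moved in opposite directions. Nrp2 (ENSMUSG00000025969, chromosome 1, 62703285 to 62818695), known for its role in interneuron migration, had 135, 139, 179.8 and 143 CPM in Sufu-cKO samples and 97.3, 92.6, 86.7 and 113 CPM in control samples. The ranges were separate, and Mut_337 was the highest sample. Its rise was 1.53-fold with a 95% interval of 1.30 to 1.79 (log2 fold change 0.61, SE 0.105; edgeR, adjusted p = 0.00373). Without sample Mut_337, which had the high mesenchymal level, the log2 fold change was 0.50 (edgeR, adjusted p = 0.0032). The call held in all 8 fits with 1 sample left out. Of 15 tested GABAergic neuron markers 1 was called, higher (6.67%, against 11.0% of all tested genes), and their median log2 fold change was 0.98. The summed level of that list overlapped, with 109 to 281 CPM in Sufu-cKO and 116 to 227 CPM in control samples. The part of those markers in the level of Nrp2 was not tested.

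Nrp1 (ENSMUSG00000025810, chromosome 8, 128359073 to 128505462), a receptor for Sema3a in neurons and a co-receptor for VEGF in endothelium, had 58.9, 74.3, 76.0 and 69.4 CPM in Sufu-cKO samples and 89.7, 99.7, 98.9 and 81.9 CPM in control samples. No Sufu-cKO sample reached the control range. Nrp1 fell 1.33-fold (log2 fold change -0.41, SE 0.0886; edgeR, adjusted p = 0.0107), and it kept its call in all 8 fits without 1 sample. Of 12 endothelial markers 3 were called (25.0%, against 11.0% of all tested genes), all lower, with a median log2 fold change of -0.24. Their summed level was 322 to 386 CPM in Sufu-cKO and 381 to 438 CPM in control samples, with no marker at 0 in every sample. Their part in the level of Nrp1 was not tested. The ratio of Nrp2 to Nrp1 CPM within a sample was 2.28, 1.86, 2.37 and 2.06 in Sufu-cKO and 1.08, 0.928, 0.876 and 1.38 in control samples. Ratios within a sample were given no test of their own.

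**Figure D3:**
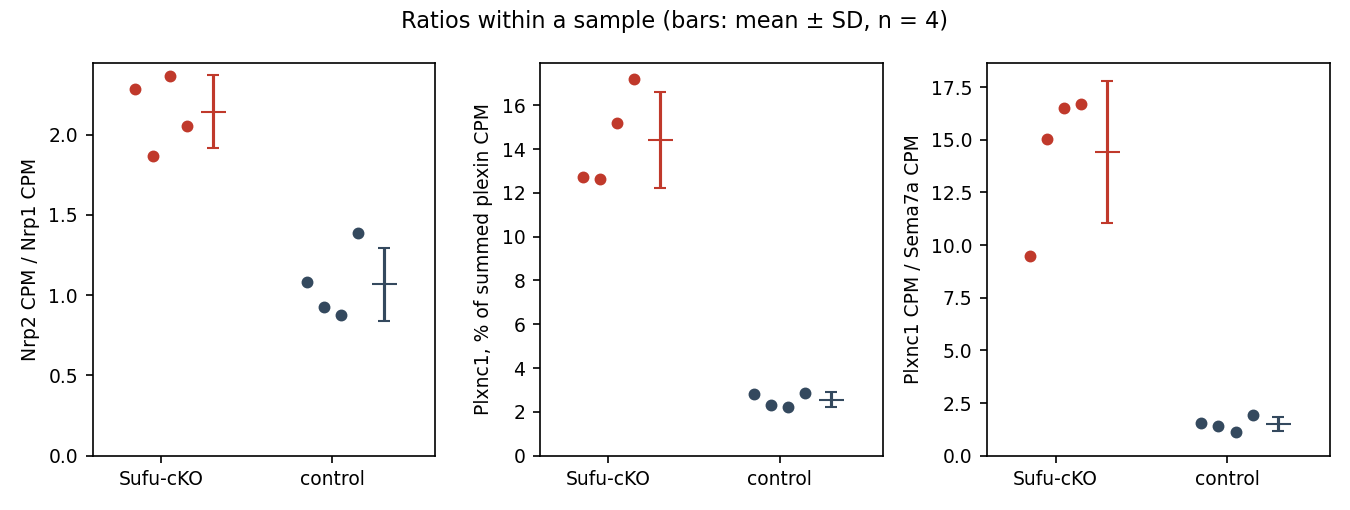
Nrp2 CPM over Nrp1 CPM, the percentage of summed plexin CPM that came from Plxnc1, and Plxnc1 CPM over Sema7a CPM, each computed within a sample, for 4 Sufu-cKO samples (left) and 4 control samples (right) with mean ± SD. In all 3 panels every Sufu-cKO sample lies above every control sample. The ratios were built from members already called, so this separation restates their calls and is no separate result.

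Among the 7 secreted semaphorins only Sema3d was called. Sema3d (ENSMUSG00000040254, chromosome 5, 12383166 to 12588943), a secreted cue that is known in vascular and neural crest development, had 5.06, 4.12, 7.53 and 6.98 CPM in Sufu-cKO samples and 2.23, 2.92, 2.72 and 2.77 CPM in control samples. The groups did not overlap, and the Sufu-cKO samples spread more widely. The rise was 2.23-fold with a 95% interval of 1.64 to 3.02 (log2 fold change 1.16, SE 0.202; edgeR, adjusted p = 0.00296). At 117 to 257 counts per Sufu-cKO sample and 65 to 98 per control sample it was one of the lowest tested members, ranked 33 of 35 per kb in Sufu-cKO and last in control samples. Without Sufu-cKO sample Mut_337 the log2 fold change was 1.01 (edgeR, adjusted p = 0.008).

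Sema3d lies on chromosome 5 together with Sema3a, Sema3e and Sema3c, and these neighbours were not called. Sema3a, the prototype repellent that acts through Nrp1, had 41.6, 40.2, 44.3 and 56.4 CPM in Sufu-cKO samples and 40.5, 45.4, 40.8 and 40.8 CPM in control samples. Sufu-cKO sample Mut_340 was high and the other Sufu-cKO samples lay within or just below the control range, with a fold change of 1.09 and a 95% interval of 0.937 to 1.27. Sema3c, a ligand of both neuropilins, averaged 35.8 ± 9.53 CPM in Sufu-cKO and 28.7 ± 2.94 CPM in control (SD, n = 4 each), and Sufu-cKO sample Mut_295 lay below all controls while the other 3 lay above all controls. It was called only without that sample (log2 fold change 0.48; edgeR, adjusted p = 0.0173) and was singled out after its values were seen. Sema3e, which binds Plxnd1 without a neuropilin, had a fold change of 1.25 with an interval of 0.979 to 1.61. The 3 secreted members on other chromosomes, Sema3b, Sema3f and Sema3g, had log2 fold changes of -0.23, -0.37 and -0.09 and were not called. Sema3f, a ligand of Nrp2, was the most variable of these in Sufu-cKO samples, with 5.59 to 11.6 CPM against 9.88 to 11.9 CPM in control samples.

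Class 6 semaphorins, transmembrane ligands of A-type plexins, gave both of the membrane-bound rises. Sema6a (ENSMUSG00000019647, chromosome 18, 47235598 to 47368870), a ligand of Plxna2 and Plxna4, had 105, 121, 124 and 113 CPM in Sufu-cKO samples and 48.0, 48.4, 56.4 and 62.6 CPM in control samples. The lowest Sufu-cKO value was well above the highest control value. Sema6a rose 2.15-fold with a 95% interval of 1.87 to 2.46 (log2 fold change 1.10, SE 0.0908; edgeR, adjusted p = 1.26e-05), and its log2 fold change was 1.05 to 1.18 in the 8 fits without 1 sample. Its share of all semaphorin CPM was 11.6% to 13.9% in Sufu-cKO and 6.07% to 7.75% in control samples. Of 3 tested genes within 500 kb, Commd10 was called higher (log2 fold change 0.25), where 11.0% of all tested genes were called in either direction.

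Sema6d (ENSMUSG00000027200, chromosome 2, 124089969 to 124667770), a ligand of Plxna1, had 130.4, 133, 111 and 158 CPM in Sufu-cKO samples and 90.4, 91.1, 98.5 and 104.5 CPM in control samples. Its groups were separate, though the lowest Sufu-cKO sample, Mut_337, came close to the highest control sample. The rise was 1.38-fold with a 95% interval of 1.2 to 1.6 (log2 fold change 0.47, SE 0.0948; edgeR, adjusted p = 0.00814). The other class 6 members, Sema6b and Sema6c, had log2 fold changes of -0.05 and 0.08. Together the 13 membrane-bound semaphorins summed to 809 ± 28.8 CPM in Sufu-cKO and 685 ± 33.4 CPM in control. The difference of 124 CPM is a net value, as 6 of the 13 members had log2 fold changes below 0. The largest parts were those of Sema6a (61.9 CPM), Sema5a (39.4 CPM), which was not called, and Sema6d (36.9 CPM).

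Classes 4 and 5 gave no call. Sema5a and Sema5b, transmembrane cues with thrombospondin-type repeats, had log2 fold changes of 0.31 and 0.13. Sema5a averaged 206 ± 36.3 CPM in Sufu-cKO and 167 ± 12.6 CPM in control, and Sufu-cKO sample Mut_295, at 157 CPM, lay within the control range while the others lay above it. Leaving that sample out gave Sema5a a log2 fold change of 0.41 and an edgeR adjusted p of 0.00399, past the threshold. Sema4d, a ligand of B-type plexins, had 30.02, 32.0, 26.6 and 28.01 CPM in Sufu-cKO samples and 33.4, 37.2, 35.1 and 32.8 CPM in control samples. Its groups did not overlap, but it missed the threshold (log2 fold change -0.25, SE 0.0772; edgeR, adjusted p = 0.0623). It was called lower with upper quartile scaling, with total count scaling, by DESeq2 and without Sufu-cKO sample Mut_317 (adjusted p 0.0265 to 0.0498). Both were singled out after their values were seen. Sema4a, Sema4b, Sema4c, Sema4f and Sema4g had log2 fold changes between -0.25 and 0.46. Over the 10 membrane-bound members without a call the 95% intervals of the fold change reached from 0.700 to 1.81, so that a miss of the threshold does not show equal levels. Sema4g lies 1.39 Mb from the floxed Sufu gene and had a fold change of 0.924 (0.800 to 1.07).

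None of the 7 other tested plexins was called. A-type plexins signal for class 3 and class 6 semaphorins, B-type plexins for class 4, and Plxnd1 for Sema3e. Plxna2 had 329, 422, 329 and 438 CPM in Sufu-cKO samples and 293.7, 364, 374 and 295.3 CPM in control samples, with a fold change of 1.14 (0.948 to 1.38). Plxna4 had 99.5, 180.2, 124 and 147 CPM in Sufu-cKO samples and 88.4, 113, 139 and 112 CPM in control samples, with a fold change of 1.22 (0.884 to 1.67). For both genes the samples of 1 genotype differed by more than the genotype means did. Plxna1 stood at -0.31 ± 0.117 (log2 fold change and SE) with an edgeR adjusted p of 0.139, and it was called lower only without Sufu-cKO sample Mut_317 (adjusted p = 0.0407). It lies 4.11 Mb from Emx1, the site of the cre allele, and Sema4f, at 2.25 Mb from Emx1, had a log2 fold change of 0.16 and was not called. Plxnb1 and Plxnb2 had fold changes of 0.998 (0.884 to 1.13) and 0.932 (0.815 to 1.07), and Plxna3 and Plxnd1 stood at 1.04 and 0.921. The strand setting of the counting is not given, and Plxna1, Plxna4, Plxnb1 and Sema4c each share exon sequence with an antisense gene, whose own counts were 782 or fewer over all samples.

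Crmp1 (ENSMUSG00000029121, chromosome 5, 37242080 to 37292132) was the called member among the CRMPs. It had 456, 420.1, 410.2 and 403 CPM in Sufu-cKO samples and 311, 342, 388 and 362 CPM in control samples. The groups were separate by a small margin, and the rise was 1.2-fold with a 95% interval of 1.08 to 1.34 (log2 fold change 0.27, SE 0.0703; edgeR, adjusted p = 0.0286). It lost its call with total count scaling (adjusted p = 0.0511) and in 6 of the 8 fits without 1 sample, those without Mut_295, Mut_317, Mut_337, Cont_294, Cont_345 or Cont_370 (edgeR, adjusted p 0.0558 to 0.0901), and the authors' deposited table gives it a false discovery rate of 0.0813. Crmp1 is a gene of young neurons. Of 14 young neuron markers 7 were called, all higher, where 11.0% of all tested genes were called in either direction. All 14 had log2 fold changes above 0, with a median of 0.27, and the summed levels of that list did not overlap between genotypes. The part of those markers in the level of Crmp1 was not tested.

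None of the other CRMPs was called. Dpysl3, the most abundant member of the whole family, averaged 774 ± 59.3 CPM in Sufu-cKO and 809 ± 74.4 CPM in control (SD, n = 4 each). Dpysl2, the CRMP best known as a tubulin-binding mediator of Sema3a, averaged 194 ± 17.0 CPM in Sufu-cKO and 182 ± 24.9 CPM in control. Dpysl5 had a fold change of 1.004 with a 95% interval of 0.900 to 1.12, and Dpysl4 one of 0.983 with an interval of 0.727 to 1.33. Whether Crmp1 differed from them in its change was not tested.

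Levels of different members were compared per kb of exon. In control samples Dpysl3 led with 122 ± 11.3 CPM per kb, followed by Crmp1 (49.8 ± 4.60), Plxnb2 (48.9 ± 3.17), Dpysl5 (46.3 ± 3.56) and Dpysl2 (40.2 ± 5.52), of which the middle 3 lay within each other's SD. Plxnb1, Plxna2, Plxna1 and Plxna3 came next, between 17.5 and 30.8 CPM per kb. Plxnd1 (13.1), Nrp1 (9.46), Nrp2 (8.23) and Plxna4 (8.03) lay among the membrane-bound semaphorins. Of the membrane-bound semaphorins 10 of 13 lay between 4.51 and 15.4 CPM per kb, led by Sema4c and Sema5b. The secreted semaphorins ranged from 0.309 for Sema3d to 4.02 for Sema3c, and the membrane-bound Sema4a, Sema6b and Sema4f (0.874 to 1.44) lay within that range. The first 2 ranks were held by the same genes in Sufu-cKO samples, with Dpysl3 at 117 ± 8.98 and Crmp1 at 60.0 ± 3.35 CPM per kb, while Plxnc1 ranked 6 there against 24 in control samples and Sema6a 13 against 21.

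**Figure D4:**
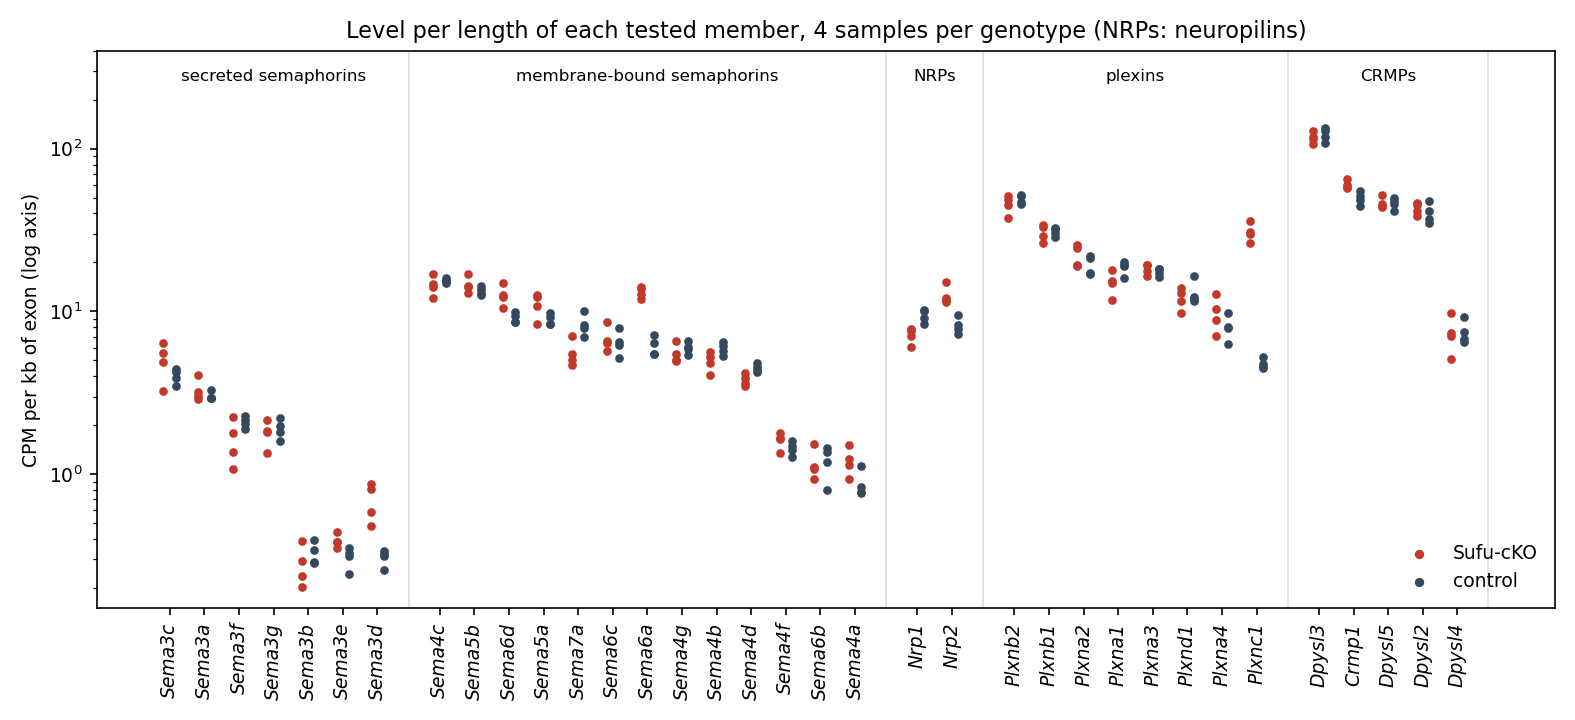
Level of each tested member as CPM per kb of exon on a log axis, 4 Sufu-cKO samples left of 4 control samples for each gene, in classes and ordered by the control mean. Dpysl3 lies highest and Sema3b, Sema3e and Sema3d lowest, and Plxnc1 and Sema6a show the clearest separation of the genotypes.

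Possible partners of the family were taken as a hand-picked list of 15 co-receptors and alternative receptors and one of 28 intracellular effectors, and for Gpc3, Ptk7 and Robo1 a role in semaphorin signalling was not checked against a source. Of 14 tested co-receptors, 2 rose and 2 fell. Nrcam, an L1-type adhesion molecule that pairs with Nrp2, averaged 132 ± 9.88 CPM in Sufu-cKO and 82.4 ± 7.68 CPM in control (1.6-fold; edgeR, adjusted p = 0.000127), and Gpc3, a cell surface heparan sulfate proteoglycan, rose 1.92-fold with its highest value in sample Mut_337. Erbb2, a receptor kinase that couples to B-type plexins, fell 1.43-fold. Kdr, the VEGF receptor that pairs with Nrp1 in endothelium, fell 1.22-fold and is also counted among the endothelial markers above. Erbb2 lost its call without Mut_317, Cont_345 or Cont_365 (edgeR, adjusted p 0.067 to 0.0947). The median log2 fold change of the co-receptor list was -0.15.

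Of the 28 tested effectors, 2 rose, 4 fell and 22 were not called, with a median of 0.04. Rnd1, a small GTPase that binds the intracellular part of plexins, had 2.57 ± 0.291 CPM in Sufu-cKO and 12.2 ± 1.17 CPM in control (4.74-fold lower, n = 4 each; edgeR, adjusted p = 1.01e-06). The related Rnd2, a gene of migrating cortical neurons, fell 1.30-fold and missed the threshold when Cont_345 was left out (edgeR, adjusted p = 0.051). Rras, a GTPase on which plexins act, and Numb, an adaptor for endocytosis that binds Dpysl2, fell by 0.43 and 0.24 on the log2 scale. Limk2, a kinase that regulates actin turnover through cofilin, and Rapgef2, an activator of Rap GTPases, rose by 0.30 and 0.21 on the log2 scale. Of these 4 genes only Limk2 kept its call in all 8 fits without 1 sample. Rras kept it only without Mut_337, and lost it in the other 7 (edgeR, adjusted p 0.054 to 0.129) and with no filter on low counts (0.0906). Numb kept it only without Mut_317 or Cont_294 and lost it in 6 (edgeR, adjusted p 0.0531 to 0.0884). Rapgef2 kept it only without Cont_345, and lost it in 7 (edgeR, adjusted p 0.0528 to 0.149) and under all 3 other scalings and both other filters (0.054 to 0.0897). Fyn, Rac1, Rhoa, Cdk5 and Gsk3b, which act downstream of semaphorin receptors in growth cones, were not called (log2 fold changes 0.01 to 0.14). The shares called, 28.6% of co-receptors and 21.4% of effectors, stand beside 11.0% over all tested genes.

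**Figure D5:**
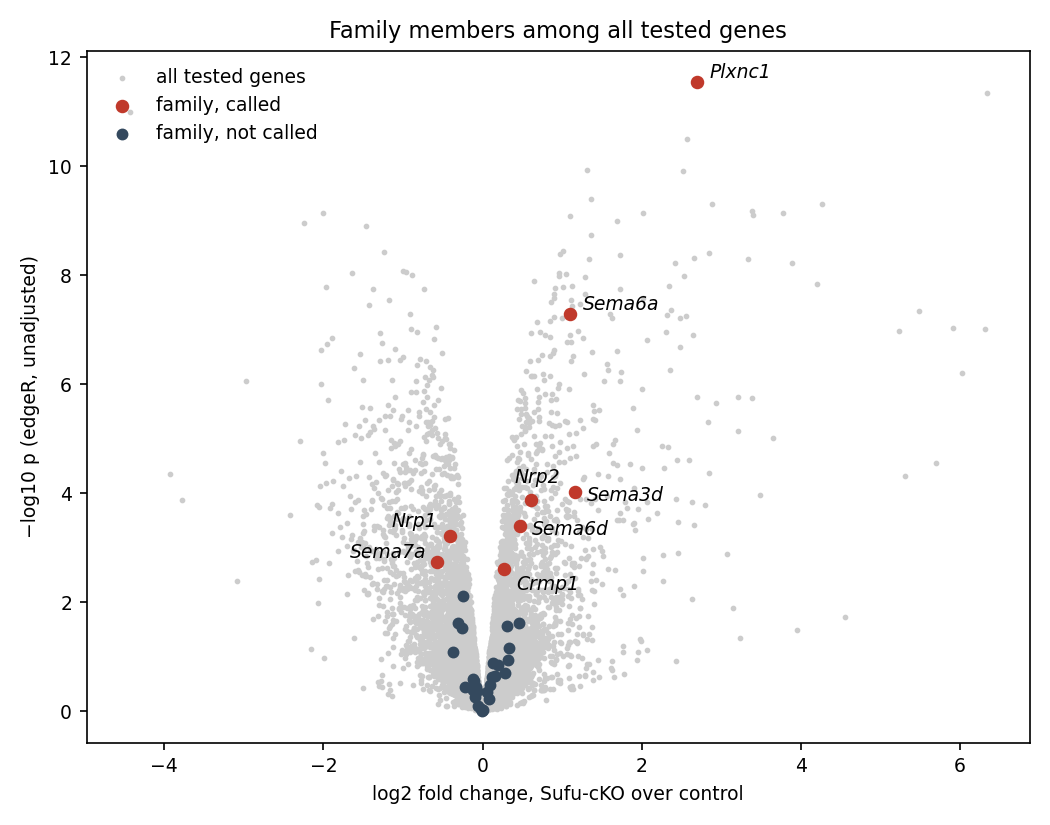
Log2 fold change, Sufu-cKO over control, against −log10 of the unadjusted edgeR p for all 15382 tested genes (grey), with the 8 called members (red, named) and the 27 tested members that were not called (dark blue). Plxnc1 is the highest point, and the members without a call lie at the base between log2 fold changes of -0.37 and 0.46.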

How the data were processed

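RNA libraries were made with a TruSeq stranded mRNA kit, and reads were aligned with STAR 2.4.2a to GRCm38, per the labels' protocols and the submitters' processing notes. Which program counted reads, with which strand setting and gene models, is not stated in the labels. Whole-number counts for each gene, deposited by the authors for all 8 samples, are the values tested. Their second table gives a deposited signal per gene (counts divided by 1 size factor per sample, used here only to check that statement), the authors' fold change as a ratio, and the authors' p-value and false discovery rate. There were 0 value columns without a matching sample.

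Each within-genotype pair of samples differed by far more than counting noise. The analysis used edgeR 4.0.16 under R 4.3.3: filterByExpr (minimum count 10, minimum total 15) left 15382 genes with 99.94% of counts, libraries were scaled by TMM, and genotypes were compared with the robust quasi-likelihood F-test, 2-sided. SEs were back-calculated from the F statistic, and 95% intervals used its degrees of freedom. Levels are CPM with TMM-scaled library sizes, divided by the exon length of GENCODE M21 (GRCm38) where genes are compared, and 36 of 36 members matched. Gene coordinates were taken as the authors' second table lists them. Alternatives covered other scalings, filters, DESeq2 1.42.0, limma 3.58.1 (voom), no robust estimation, a 1.2-fold null and each sample left out.

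The members, the lists and the rule for named genes were chosen with earlier results of these data known. That rule gives values in every sample for called members and for members that differ by at least 0.5 (log2) at a mean of 1 CPM or more, names Nrp1, Nrp2, Plxna2, Plxna4, Sema3a and Crmp1 in any case, and names every called co-receptor and effector. The remaining members were given by range, with those near the threshold or next to a called gene named after their values were seen.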

Additional observations from a re-analysis of the deposited data

Results flagged for a closer look

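In 2 of the 70 sets of 4 samples (35 tested members in each genotype), 1 sample stood far from the other 3 by Dixon's gap criterion, where chance alone flags about 5% of sets. Sema3a had 45.4 CPM in control sample Cont_345, against 40.5 to 40.8 CPM in the other control samples. Plxnd1, the plexin of endothelial cells, had 120.3 CPM in control sample Cont_365, against 84.3 to 90.2 CPM in the other controls. The same sample had the highest summed level of the 12 endothelial markers, at 438 CPM against 381 to 428 CPM in the other controls, and the part of that difference in the level of Plxnd1 was not tested. Neither gene was called between the genotypes, and neither passed in any fit with 1 sample left out.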

How the results depend on the processing

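Plxnc1, Sema6a, Sema3d and Nrp2 were called under all 17 alternatives, Nrp1 and Sema6d under all but the test against a 1.2-fold change, and no member that was called in any fit changed sign. Against a 1.2-fold change, 716 genes were called over the whole table (359 higher, 357 lower), 4 members (all higher, 0 lower), 2 co-receptors and 1 effector. With 1 sample left out, 1079 to 1836 genes were called (537 to 939 higher, 542 to 897 lower), with the fewest without control sample Cont_345, together with 6 to 9 members (5 to 7 higher, 1 to 3 lower), 3 to 5 co-receptors and 3 to 4 effectors. No paired analysis was possible because the labels give no litter or other link between samples of the genotypes. DESeq2 called 2124 genes and 9 members. Intervals of the fold change were wide for some members at low levels, such as Sema3b (0.597 to 1.22). They were also wide for some at higher levels, such as Plxna4 (0.884 to 1.67), and the part of depth in their width was not tested.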

Other observations

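Members of the family varied more between Sufu-cKO samples than between control samples. The coefficient of variation was larger in Sufu-cKO for 28 of the 35 tested members, beside 62.0% of all tested genes, and its median over members was 14.0% in Sufu-cKO and 9.49% in control, beside 10.4% and 8.36% over all tested genes. Sufu-cKO sample Mut_295 held the highest value of the 4 Sufu-cKO samples for 17 members (30.1% of all tested genes), and Mut_340 the lowest for 15 (31.3% of all tested genes). Among control samples, Cont_294 held the lowest value for 19 members (26.6% of all tested genes). These values are descriptions of 4 samples a genotype and were given no test.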
